A study of Homo sapiens with 10 samples.

Results

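The 10 genes described here are 3 ligands of the bone morphogenetic protein (BMP) pathway, BMP2, BMP4 and BMP7, together with ID1, ID2, ID3, ID4, MSX1, MSX2 and BAMBI, which are widely used as readouts of that pathway. They were chosen by symbol from a table of 35940 gene symbols, each of the 10 has 1 identifier there, and all 10 passed the filter on low counts that left 15251 symbols for testing. MSX1 and MSX2 passed it only through treated libraries. RNA was sequenced from ESI017, a human embryonic stem cell line labelled WT, in the defined medium mTeSR1. The canonical WNT pathway was activated with its ligand, recombinant WNT3A at 300 ng/ml, or with CHIR99021 at 8 µM. CHIR99021 is a small-molecule inhibitor of the kinase GSK3, which otherwise targets β-catenin for destruction. Each agent was given for 6 h or 18 h, and untreated cells in the medium alone (mTeSR1) served as reference, with 2 libraries in each of the 5 groups. All groups share the line, the medium and plating 24 h before treatment. No label lists BMP as a treatment. The labels give neither a harvest time for mTeSR1 nor a solvent control for CHIR99021, so time in culture and solvent cannot be told apart from the treatments. The series comes from a study of how BMP and WNT signals are read together, and the comparisons below ask how transcripts of BMP ligands and BMP-responsive genes stood when WNT signalling was activated and no BMP was added.

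BMPs are secreted dimers of the TGF-β family that bind paired type I and type II serine/threonine kinase receptors, which phosphorylate SMAD1, SMAD5 and SMAD9. These join SMAD4 in the nucleus and act on genes such as the ID family, whose proteins lack a DNA-binding domain and hold E proteins away from DNA. In human pluripotent stem cells, BMP is known to drive differentiation towards extraembryonic fates and, through WNT and NODAL ligands, towards primitive streak fates, and BMP4 is also known as a gene that β-catenin can raise.

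Every group came from 2 biological repeats with 1 library from each, except CHIR99021 at 18 h, which was added in repeat 2 and has both libraries there. Library totals were 1.665e+07 to 2.673e+07 estimated counts, so that 3 counts correspond to 0.112 to 0.180 CPM (counts scaled to a library of 1000000) by those totals. All other CPM values are after trimmed-mean scaling of the libraries. The 5 pluripotency markers POU5F1, SOX2, NANOG, DPPA4 and LIN28A were detected in every group, with a summed level between 4560 and 5710 CPM over all libraries. The 2 CHIR99021 18 h libraries stood apart from each other. Their summed level of 5 primitive streak markers (TBXT, EOMES, MIXL1, MESP1 and TBX6) was 23.0 CPM in replicate 1 and 210 CPM in replicate 2. The same sum was 2.14 and 3.23 CPM in mTeSR1, with TBXT and MESP1 at 0, 72.6 and 75.6 CPM after 6 h of WNT3A, 233 and 240 CPM after 18 h of WNT3A, and 6.71 and 9.06 CPM after 6 h of CHIR99021. Of these 5 markers 4 passed the filter, and 3 rose after 18 h of WNT3A (EOMES, MIXL1 and TBXT) and 1, EOMES, after 18 h of CHIR99021. With the repeat as a block 2 passed after WNT3A (EOMES and MIXL1), without it 2 passed after CHIR99021 (EOMES and TBXT), and DESeq2 called EOMES, MIXL1 and TBXT in both. The 3 definitive endoderm markers summed to 0.209 to 0.624 CPM in mTeSR1, 5.56 CPM or more after 18 h of WNT3A and 4.30 to 9.59 CPM after 18 h of CHIR99021, with SOX17 at 0 in all 3 groups. Of these, FOXA2 rose after 18 h of both agents (3.92 and 3.82 on the log2 scale, adjusted p = 0.015 and 0.018). GATA4 rose after CHIR99021 (4.25, adjusted p = 0.040, and 0.11 without the block) and was at 5.23 after WNT3A (adjusted p = 0.070, and 0.0091 with the block). The 5 fibroblast markers summed to 68.6 to 101, 166 to 167 and 104 to 134 CPM in these groups, nearly all of it COL1A2 (67.5 and 99.8, 165 and 166, and 103 and 133 CPM), with DCN at 0 in each. COL1A2 rose after 18 h of WNT3A (0.99, adjusted p = 0.048) and did not pass after 18 h of CHIR99021 (0.41, adjusted p = 0.25). These are bulk libraries, so fewer cells of a type and less RNA per cell cannot be told apart.

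The promoters of the 3 genes that rose in at least 1 comparison with mTeSR1, BMP4, ID2 and MSX2, are shown first, with that of BAMBI, which held the most motif matches of any of these genes and did not pass the test. Each is the 250 bases before a RefSeq transcript start (GRCh38.p14), and RefSeq windows were matched for 8 of the 10 genes (BMP2 and BMP7 were not matched). Capitals mark exact matches, on either strand, to 3 short motifs: GGCGCC, a GC-rich element bound by BMP-activated SMADs, which reads the same on both strands, the SMAD box CAGAC, which reads GTCTG on the opposite strand, and CTTTGA, a core of TCF/LEF sites that reads TCAAAG on the opposite strand. The windows are BMP4 at chr14:53955051-53955300 on the minus strand, ID2 at chr2:8681806-8682055, MSX2 at chr5:174724332-174724581 and BAMBI at chr10:28677271-28677520, the last 3 on the plus strand.
BMP4: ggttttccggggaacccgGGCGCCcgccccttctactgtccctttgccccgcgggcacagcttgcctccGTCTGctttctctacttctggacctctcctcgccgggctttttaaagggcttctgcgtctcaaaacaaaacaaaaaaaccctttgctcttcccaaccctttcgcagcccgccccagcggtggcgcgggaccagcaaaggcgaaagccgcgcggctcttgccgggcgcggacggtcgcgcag
ID2: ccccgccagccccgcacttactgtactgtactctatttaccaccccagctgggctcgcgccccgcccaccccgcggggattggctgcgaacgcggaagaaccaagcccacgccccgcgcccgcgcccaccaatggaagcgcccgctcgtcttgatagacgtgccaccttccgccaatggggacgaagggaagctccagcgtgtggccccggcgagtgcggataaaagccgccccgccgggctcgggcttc
MSX2: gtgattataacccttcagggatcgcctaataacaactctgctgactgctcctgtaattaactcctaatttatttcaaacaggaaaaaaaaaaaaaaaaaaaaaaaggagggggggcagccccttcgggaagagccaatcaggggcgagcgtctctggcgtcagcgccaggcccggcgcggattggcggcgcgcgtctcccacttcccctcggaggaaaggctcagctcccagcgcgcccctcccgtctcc
BAMBI: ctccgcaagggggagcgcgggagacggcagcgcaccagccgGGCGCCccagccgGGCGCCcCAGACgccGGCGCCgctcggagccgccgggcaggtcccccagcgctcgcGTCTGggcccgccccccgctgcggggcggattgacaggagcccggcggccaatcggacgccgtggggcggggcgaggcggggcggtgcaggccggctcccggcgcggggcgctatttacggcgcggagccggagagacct
In this BMP4 window GGCGCC begins at -232 and GTCTG at -181, counted from the transcript start. BMP4 has 2 other windows, chr14:53953396-53953645 with GTCTG at -46 and chr14:53954489-53954738 with no match. BAMBI holds GGCGCC at -209, -196 and -181 and the SMAD box at -189 and -140, and no match overlaps another. ID2 and MSX2, like ID1 and MSX1, have none of the 3 motifs in their windows. ID3 (chr1:23559502-23559751, minus strand) has CTTTGA at -179 and CAGAC at -147, and ID4 (chr6:19837120-19837369) has CAGAC at -205. Among 35116 windows of the same length over all genes, GGCGCC was present in 16.4%, the SMAD box in 38% and CTTTGA in 11.2%. Of the 8 genes matched, 2 held the first, 4 the second and 1 the third, and a match describes only the letters of a short window. These counts are per gene over all of its windows, several for BMP4, while the shares are per window, so the measures differ.

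All genes that follow are protein coding, with positions in GRCh38. BMP4 (ENSG00000125378, chr14:53949736-53958761, minus strand) encodes the ligand most used to differentiate pluripotent cells. Its level was 1.67 and 1.30 CPM in the mTeSR1 libraries of repeats 1 and 2, 1.98 and 1.73 CPM after 6 h of WNT3A, and 5.89 and 6.50 CPM after 18 h of WNT3A. After CHIR99021 it was 3.62 and 2.16 CPM at 6 h and 4.00 and 5.13 CPM in replicates 1 and 2 at 18 h. The groups ran in the order mTeSR1, WNT3A 6 h, CHIR99021 6 h, CHIR99021 18 h and WNT3A 18 h. Libraries of neighbouring groups in that order did not overlap, but no neighbouring pair passed the test (adjusted p of 0.63 to 1.0). Against mTeSR1, BMP4 rose by 2.05 on the log2 scale after 18 h of WNT3A (SE 0.34, 95% interval 1.28 to 2.82, edgeR quasi-likelihood test with Benjamini-Hochberg adjustment over all symbols, adjusted p = 0.022). After 18 h of CHIR99021 it rose by 1.76 (SE 0.33, interval 1.00 to 2.51, adjusted p = 0.035), and without the repeat as a block the value was 1.61 (adjusted p = 0.068). The changes at 6 h, 0.31 for WNT3A and 0.95 for CHIR99021, did not pass (adjusted p = 1.0 and 0.95). From 6 h to 18 h of WNT3A the change was 1.74 (interval 0.99 to 2.49, adjusted p = 0.085), which passed when the repeat was a block (1.75, adjusted p = 0.032).

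BMP2 and BMP7 encode the other ligands of the set. BMP2 (ENSG00000125845, chr20:6767664-6780280, plus strand) had mTeSR1 levels of 7.43 and 3.97 CPM. They were 2.60 and 2.32 CPM at 6 h and 3.72 and 3.05 CPM at 18 h of WNT3A, and 4.33 and 3.67 CPM at 6 h and 3.04 and 2.03 CPM at 18 h of CHIR99021. All treated libraries except the first at CHIR99021 6 h lay below both mTeSR1 libraries, which themselves differed by the largest gap in any group for this gene. No change passed: the log2 values were -1.21 and -0.75 for WNT3A at 6 h and 18 h and -0.51 and -0.92 for CHIR99021, with adjusted p of 0.37, 0.42, 0.95 and 0.18. BMP7 (ENSG00000101144, chr20:57168748-57266629, minus strand) ranged from 11.3 to 20.5 CPM over the 10 libraries, and its groups overlapped. Its log2 changes against mTeSR1 lay between -0.51 and -0.09, and the lowest adjusted p was 0.21. BMP7 overlaps the antisense gene BMP7-AS1, which was not analysed here.

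Of the 4 ID genes, ID2 (ENSG00000115738, chr2:8678845-8684453, plus strand) rose at 18 h with both agents. In mTeSR1 it was 10.1 and 9.02 CPM. It stood at 54.1 and 31.7 CPM after 6 h of WNT3A and at 64.4 and 62.2 CPM after 18 h. CHIR99021 libraries were at 21.2 and 22.3 CPM after 6 h and at 33.2 and 77.4 CPM in replicates 1 and 2 after 18 h. All 8 treated libraries were above both mTeSR1 libraries. The groups ran in the order mTeSR1, CHIR99021 6 h, WNT3A 6 h, CHIR99021 18 h and WNT3A 18 h, the CHIR99021 18 h libraries overlapped those of WNT3A at both times, and no neighbouring pair that was compared passed. The rise after 18 h was 2.73 on the log2 scale with WNT3A (SE 0.39, interval 1.83 to 3.62, adjusted p = 0.013, edgeR) and 2.65 with CHIR99021 (SE 0.40, interval 1.74 to 3.56, adjusted p = 0.015). At 6 h of WNT3A the change was 2.16 (interval 1.28 to 3.04, adjusted p = 0.064), which passed with the repeat as a block (2.14, adjusted p = 0.037) and in DESeq2 (2.15, adjusted p = 1.9e-06). At 6 h of CHIR99021 it was 1.19 (interval 0.32 to 2.05, adjusted p = 0.95). Reads of ID2-AS1, an antisense gene that overlaps ID2, were not analysed here.

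ID3 (ENSG00000117318, chr1:23557918-23559794, minus strand) was at 90.5 and 47.3 CPM in mTeSR1. After WNT3A it was at 134 and 61.8 CPM at 6 h and 149 and 117 CPM at 18 h, and after CHIR99021 at 128 and 120 CPM at 6 h and 110 and 108 CPM at 18 h. The libraries of CHIR99021 at both times and of WNT3A at 18 h were all above both mTeSR1 libraries, and those of WNT3A at 6 h overlapped them. The log2 change was 0.95 after 18 h of WNT3A (interval 0.09 to 1.80, adjusted p = 0.30) and 1.04 after 18 h of CHIR99021 (interval 0.48 to 1.59, adjusted p = 0.067). With the repeat as a block the first became 1.01 and passed (adjusted p = 0.042), and without it the second became 0.66 (adjusted p = 0.47).

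ID1 (ENSG00000125968, chr20:31605283-31606515, plus strand), the ID gene most often used to read BMP signalling, did not pass the test in any comparison. It was at 47.8 and 46.3 CPM in mTeSR1 and at 26.8 and 27.6 CPM after 6 h of WNT3A, where both libraries lay below both mTeSR1 libraries. At 18 h of WNT3A the 2 libraries were on opposite sides of mTeSR1, at 28.7 CPM in repeat 1 and 73.1 CPM in repeat 2. CHIR99021 gave 31.4 and 54.0 CPM at 6 h, and 66.1 and 37.6 CPM in replicates 1 and 2 at 18 h. In the 18 h CHIR99021 pair ID1 was thus higher in replicate 1 and ID2 in replicate 2. The log2 changes of ID1 were -0.79 and 0.11 for WNT3A at 6 h and 18 h and -0.14 and -0.15 for CHIR99021, with adjusted p of 0.85 to 1.0. At 18 h the sign differed between fits with and without the repeat as a block, with 0.14 for CHIR99021 when the block was left out and a value that rounds to 0.00 for WNT3A when it was added.

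ID4 (ENSG00000172201, chr6:19837386-19840684, plus strand) was at 9.15 and 3.97 CPM in mTeSR1, at 5.47 and 4.95 CPM after 6 h and 3.63 and 3.51 CPM after 18 h of WNT3A, at 5.95 and 2.86 CPM after 6 h of CHIR99021 and at 2.86 and 1.58 CPM after 18 h of it. The 4 libraries at 18 h lay below both mTeSR1 libraries. No change passed, and the log2 values ran from -1.18 (CHIR99021 18 h, adjusted p = 0.18) to -0.33 (WNT3A 6 h, adjusted p = 1.0). ID4 overlaps the antisense gene AL022068.1, which was not analysed here. The plot of levels by library shows all 10 genes.

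**Figure D1:**
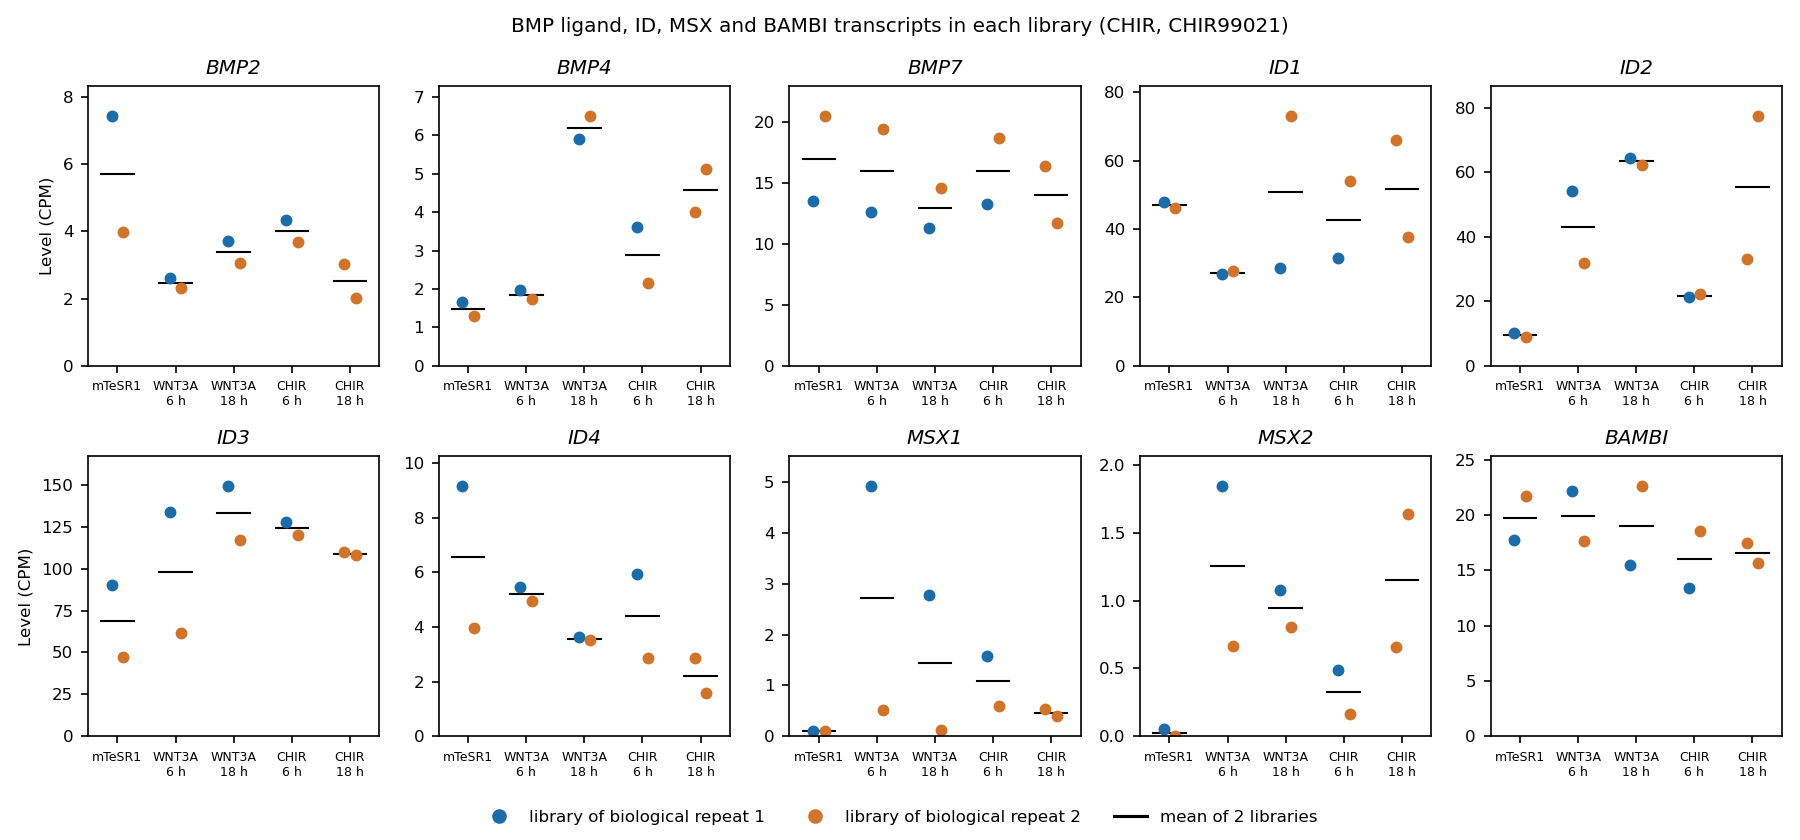
Level of each gene in CPM (linear axes from 0, one scale per gene) in the 5 groups, with 1 point per library coloured by biological repeat and a bar at the mean of 2 libraries. BMP4 and ID2 stood above mTeSR1 in all libraries at 18 h, ID1 was split at 28.7 and 73.1 CPM after 18 h of WNT3A, and MSX1 was at 4.91 and 0.511 CPM in repeats 1 and 2 after 6 h of WNT3A.

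MSX1 and MSX2 encode homeodomain repressors that are BMP targets in many embryonic tissues. MSX2 (ENSG00000120149, chr5:174724533-174730893, plus strand) had 1 and 0 estimated counts in the mTeSR1 libraries, where 3 counts correspond to 0.159 and 0.165 CPM by library total. It had 39 and 17 counts after 6 h of WNT3A (1.84 and 0.668 CPM), 23 and 14 after 18 h of WNT3A (1.08 and 0.806 CPM), 9 and 3 after 6 h of CHIR99021 (0.487 and 0.162 CPM), and 11 and 29 after 18 h of CHIR99021 (0.656 and 1.64 CPM in replicates 1 and 2). Every treated library was above both mTeSR1 libraries, and the groups of WNT3A at both times and CHIR99021 at 18 h overlapped each other. As ratios of summed counts to the 1 count in mTeSR1, with exact 95% intervals for counting error alone, MSX2 stood 44.1 times higher after 6 h of WNT3A (7.60 to 1770), 35.2 times after 18 h (5.94 to 1430), 11.9 times after 6 h of CHIR99021 (1.76 to 509) and 42.6 times after 18 h (7.22 to 1730). MSX2 rose after 18 h of CHIR99021 (fitted log2 change 5.81, interval 3.48 to 8.15, adjusted p = 0.026, edgeR), a fitted size that depends on the prior count, and without the block the value was 5.11 (adjusted p = 0.085). The fitted changes after WNT3A, 5.22 at 6 h and 4.83 at 18 h, had adjusted p of 0.14 and 0.088, and both passed with the block (5.22 with adjusted p = 0.049, and 4.94 with adjusted p = 0.028). MSX2 has a processed pseudogene copy, MSX2P1, among which reads can be divided. The copy had 9 and 17 counts in mTeSR1 and 0 to 11 in treated libraries, so that the low count of MSX2 in mTeSR1 is uncertain. In sum the copy had 26 counts in mTeSR1, against 1 for MSX2. In the treated groups, in the order above, it had 18, 11, 17 and 8, against 56, 37, 12 and 40 for MSX2. If some of the copy's reads in mTeSR1 came from MSX2, the ratios and fitted changes would be smaller, which was not tested.

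MSX1 (ENSG00000163132, chr4:4859666-4863936, plus strand) had 2 and 2 counts in mTeSR1, 104 and 13 after 6 h of WNT3A, 59 and 2 after 18 h of WNT3A, 29 and 11 after 6 h of CHIR99021 and 9 and 7 after 18 h of CHIR99021. Its level in repeat 1 was 4.91 CPM after 6 h and 2.78 CPM after 18 h of WNT3A, against 0.511 and 0.115 CPM in repeat 2, where the 18 h value was near that of mTeSR1 (0.113 CPM). No change of MSX1 passed, with log2 values of 4.55, 3.68 and 3.24 for WNT3A 6 h, WNT3A 18 h and CHIR99021 6 h (adjusted p = 0.52, 0.36 and 0.95). The value for CHIR99021 18 h, 3.77 (adjusted p = 0.13), comes from the fit with the repeat as a block and was 2.03 without it (adjusted p = 0.65), so it is not on the footing of the other 3. The mean level was lower after 18 h of CHIR99021 (0.466 CPM) than after 6 h (1.08 CPM). Summed counts relative to the 4 in mTeSR1 gave ratios of 23.0 and 14.5 for WNT3A at 6 h and 18 h and 9.92 and 4.26 for CHIR99021. Of the 10 genes, MSX1 alone passed for a difference between the biological repeats. It was at -2.63 on the log2 scale in repeat 2 against repeat 1 (edgeR with the repeat as a term, adjusted p = 0.038). The share of all symbols that passed for that term is not given here, so this count has no background beside it. BMP7 and ID3 had the next lowest values for that term (0.52 with adjusted p = 0.055, and -0.62 with adjusted p = 0.057). The summed level of the 3 neural ectoderm markers PAX6, SOX1 and LHX2 was also higher in repeat 1. SOX1 added little to it, with 2 to 4 counts per group, and no test of the repeat is given for these markers. Their sum there was 4.34 CPM in mTeSR1, 5.38 and 2.78 CPM after 6 h and 18 h of WNT3A and 2.92 CPM after 6 h of CHIR99021. In repeat 2 it was 0.170, 0.589, 0.345 and 0.0539 CPM in the same order, and 0.239 and 0.282 CPM after 18 h of CHIR99021, where PAX6 was at 0. The 5 neural crest markers summed to 2.95 to 3.87 CPM in mTeSR1, 3.06 to 3.30 CPM after 6 h and 3.34 to 5.46 CPM after 18 h of WNT3A, and 1.62 to 3.51 CPM after 6 h and 1.19 to 2.20 CPM after 18 h of CHIR99021, with TFAP2B at 0 in all groups but WNT3A 18 h. Of each list 2 genes were tested and 0 passed against mTeSR1 in edgeR or DESeq2, with SOX10 at CHIR99021 18 h alone at an unadjusted p under 0.05, and the part of these markers in the MSX1 values was not tested.

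BAMBI (ENSG00000095739, chr10:28677342-28682939, plus strand) encodes a pseudoreceptor without a kinase domain that damps BMP and TGF-β signalling and is itself known as a BMP target. Its level was 17.8 and 21.7 CPM in mTeSR1, 22.2 and 17.7 CPM after 6 h and 15.5 and 22.6 CPM after 18 h of WNT3A, and 13.4 and 18.6 CPM after 6 h and 17.5 and 15.7 CPM after 18 h of CHIR99021. The WNT3A libraries lay on both sides of the mTeSR1 mean of 19.8 ± 2.75 CPM (SD, n = 2), and the 4 CHIR99021 libraries lay below it. The log2 changes against mTeSR1 were between -0.36 and 0.01, their 95% intervals reached from -0.88 to 0.57, and the lowest adjusted p was 0.39.

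After 6 h of WNT3A, 0 of the 10 genes passed the edgeR test, against a background of 0.433% of all symbols tested. Before adjustment 4 had a p under 0.05 (BMP2, ID2, MSX1 and MSX2), as did 939 of all symbols (6.16%). DESeq2 called 1 of the 10, ID2. Over the whole table DESeq2 called more symbols than edgeR in each comparison with mTeSR1, as counted in the last section. Its counts of the 10, here and below, are thus not on the footing of the edgeR backgrounds. With the repeat as a block 2 of the 10, ID2 and MSX2, passed, as did 168 symbols in place of 66. After 18 h of WNT3A 2 of the 10, BMP4 and ID2, rose and none fell, against a background of 2.10%. Both calls were lost when any 1 of the 4 libraries compared was left out, with adjusted p of 0.066 to 0.15, and their log2 changes then stayed between 1.88 and 2.79. DESeq2 called 3 of the 10 in that comparison, adding MSX2, and with the block 4 passed (BMP4, ID2, ID3 and MSX2), as did 751 symbols in place of 320. The streak markers also stood higher at 18 h of WNT3A, at 233 and 240 CPM in sum against 2.14 and 3.23 CPM in mTeSR1, and their part in these values was not tested. Median log2 changes of the 10 genes were 0.16 at 6 h and 0.53 at 18 h of WNT3A, beside 0.01 and 0.02 over all symbols. The highest values were those of MSX1 (4.55 and 3.68) and MSX2 (5.22 and 4.83), which passed the filter only through treated libraries. Without these genes the median at 6 h would be negative and that at 18 h near that of all symbols. The medians thus do not describe a shift of the whole set.

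After 6 h of CHIR99021, 0 of the 10 passed in edgeR and 0 in DESeq2, against an edgeR background of 0.0197%. An unadjusted p under 0.05 was seen for 3 (BMP4, ID2 and MSX2) and for 723 of all symbols (4.74%). With the block 0 of the 10 and 21 symbols passed. After 18 h of CHIR99021 3 of the 10, BMP4, ID2 and MSX2, rose and none fell, against a background of 2.78%. Without the block 1, ID2, passed, as did 181 symbols in place of 424. MSX1 and MSX2 reached the minimum count in neither mTeSR1 library and passed the filter only through treated libraries. A level above mTeSR1 in some treated group was thus largely fixed in advance for both. MSX1, with 9 and 7 counts after 18 h of CHIR99021, did not reach the minimum in that group either. Of the other 8 genes 2 were called after 18 h of CHIR99021. Before adjustment 8 of the 10 were under a p of 0.05 in that comparison, where BMP2, BMP7 and ID4 had negative values, and so were 2996 of all symbols (19.6%). DESeq2 called 4 of the 10, adding ID3, and it also called more symbols than edgeR over the whole table. The medians of the 10 were 0.38 and 0.44 at 6 h and 18 h, beside 0.01 and 0.02 over all symbols. Here too MSX1 (3.24 and 3.77) and MSX2 (3.30 and 5.81) held the highest values. Without these genes both medians would be negative, so the medians do not describe a shift of the whole set. Of the CHIR99021 18 h libraries, replicate 2, with the higher streak sum, also had the higher level of BMP4, ID2 and MSX2, and the part of the streak markers in these values was not tested. Without replicate 1 the 3 changes were 1.92, 3.14 and 6.33 for BMP4, ID2 and MSX2 (adjusted p = 0.041, 0.0017 and 0.017). Without replicate 2 they were 1.57, 1.92 and 5.02, and only ID2 passed (adjusted p = 0.22, 0.032 and 0.16). Leaving out either mTeSR1 library ended all 3 calls (adjusted p of 0.091 to 0.41), and with no filter on low counts ID2 was at 2.66 and did not pass (adjusted p = 0.056). The 4 comparisons share the mTeSR1 libraries and are given side by side in the plot of changes against mTeSR1.

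**Figure D2:**
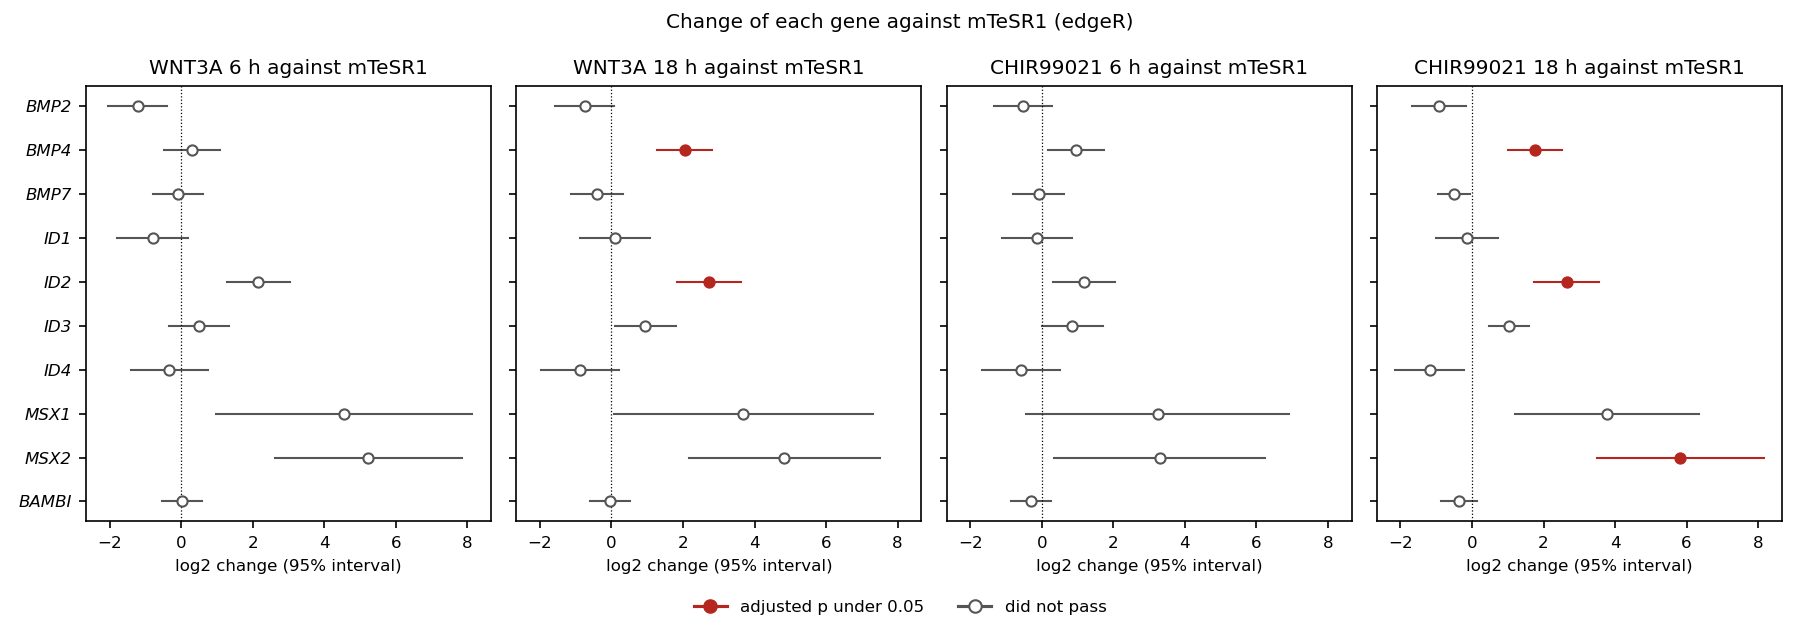
Log2 change of each gene against mTeSR1 with its 95% interval, in 4 comparisons that share the mTeSR1 libraries. Filled points passed an adjusted p under 0.05: BMP4 and ID2 at 18 h of WNT3A, and BMP4, ID2 and MSX2 at 18 h of CHIR99021. The CHIR99021 18 h panel is from the edgeR fit with the repeat as a block, and the other panels are from the fit without it. The panels are thus not on the same footing. MSX2 passed at 18 h of WNT3A with the block (adjusted p = 0.028) and not at 18 h of CHIR99021 without it (adjusted p = 0.085).

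Within each biological repeat, the ratio to that repeat's own mTeSR1 library (log2 CPM with a prior count of 2) had the same sign in both repeats for 8 of the 10 genes after 6 h of WNT3A, the exceptions being ID4 and BAMBI. The count was 8 of 10 after 18 h of WNT3A, with ID1 and BAMBI as exceptions, and 9 of 10 after 6 h of CHIR99021, with ID1 as the exception. Over all 15251 symbols the same count gave 62.4%, 60.1% and 54.0%. MSX1 and MSX2 are among the genes counted as alike in each of these comparisons with mTeSR1. They passed the filter only through treated libraries, so a positive sign was largely fixed in advance for them. The counts of the 10 are therefore not on the footing of the shares over all symbols. Between treated groups it was 8 of 10 from 6 h to 18 h of WNT3A (exceptions MSX2 and BAMBI) and 5 of 10 for CHIR99021 against WNT3A at 6 h (exceptions BMP7, ID3, ID4, MSX1 and BAMBI), beside 61.2% and 56.0% of all symbols. ID2 gave 2.41 and 1.80 in repeats 1 and 2 after 6 h of WNT3A, and 2.66 and 2.77 after 18 h. BMP4 gave 1.75 and 2.23 after 18 h of WNT3A, and MSX2 2.93 and 3.14. For ID3 the 2 values at 18 h were 0.72 and 1.30. ID1 was at -0.83 and -0.74 after 6 h of WNT3A, and at -0.73 and 0.66 after 18 h. MSX1 was at 3.79 in repeat 1 and 0.01 in repeat 2 after 18 h of WNT3A. It is counted among the 8 of 10 there, though in repeat 2 both libraries had 2 counts, so that sign carries no information. CHIR99021 at 18 h can be read in repeat 2 only, where ID2 was 2.48, BMP4 1.72, MSX2 3.48 and ID3 1.20 above the mTeSR1 library.

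**Figure D3:**
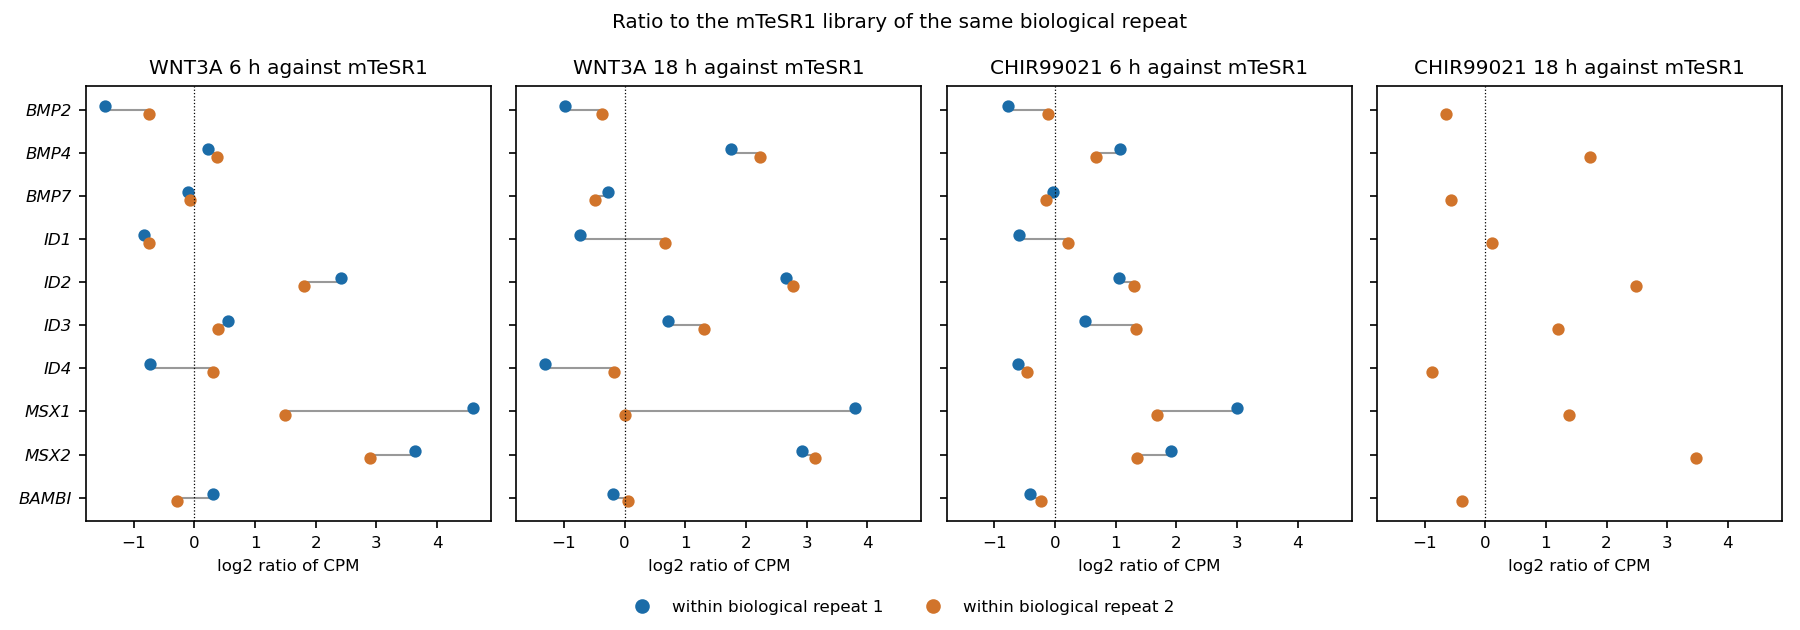
Log2 ratio of CPM (prior count 2) to the mTeSR1 library of the same biological repeat, 1 point per repeat, with repeat 2 of CHIR99021 18 h averaged over 2 libraries. After 18 h of WNT3A, ID2 was at 2.66 and 2.77 and BMP4 at 1.75 and 2.23 in repeats 1 and 2. In the same comparison MSX1 was at 3.79 and 0.01 and ID1 at -0.73 and 0.66.

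From 6 h to 18 h of WNT3A, 0 of the 10 genes passed in edgeR, against a background of 0.144%. BMP4 alone of the 10 had an unadjusted p under 0.05, as did 2017 of all symbols (13.2%). DESeq2 also called BMP4. With the block BMP4 alone of the 10 passed, as did 279 symbols in place of 22. ID2 had 0.56 (95% interval -0.26 to 1.39), and MSX2 had -0.39 (95% interval -2.07 to 1.28). From 6 h to 18 h of CHIR99021, 0 of the 10 passed in edgeR against a background of 0.00656%. Of all symbols 1045 (6.85%) had an unadjusted p under 0.05, and so did 3 of the 10. The 3 were BMP4 at 0.82 (interval 0.09 to 1.55, adjusted p = 0.63), ID2 at 1.46 (interval 0.60 to 2.31, adjusted p = 0.34) and MSX2 at 2.51 (interval 0.83 to 4.19, adjusted p = 0.41). DESeq2 called ID2 there (adjusted p = 0.0066). Without CHIR99021 18 h replicate 1 the ID2 value was 1.94 and passed (adjusted p = 0.027), and without replicate 2 it was 0.72 (adjusted p = 1.0).

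At matched times the agents were compared with each other, at 300 ng/ml of the ligand and 8 µM of the inhibitor, which are not matched doses. At 6 h, 0 of the 10 genes passed in edgeR or in DESeq2, against an edgeR background of 0.00656%. ID2 and MSX2 had an unadjusted p under 0.05, as did 996 of all symbols (6.53%). CHIR99021 libraries were lower than both WNT3A libraries for ID2 (21.2 and 22.3 against 54.1 and 31.7 CPM), a difference of -0.98 (interval -1.82 to -0.14, adjusted p = 0.69), and for MSX2 the difference was -1.92 (interval -3.77 to -0.07, adjusted p = 0.69). BMP4 was higher with CHIR99021 in both libraries, by 0.64 (interval -0.11 to 1.39, adjusted p = 0.69). At 18 h, 0 of the 10 passed in edgeR or in DESeq2 and 0 had an unadjusted p under 0.05, against a background of 0% (0 symbols in edgeR, 629 at an unadjusted p under 0.05 and 8 in DESeq2). The differences at 18 h were -0.31 for BMP4 (SE 0.30), -0.08 for ID2 (interval -0.91 to 0.75) and 0.88 for MSX2 (interval -0.59 to 2.34). Differences within these intervals remain possible, and the intervals are not limits of detection. The interaction of agent and time passed for 0 of the 10 in edgeR and in DESeq2, against a background of 0% (0 symbols in edgeR, 574 at an unadjusted p under 0.05 and 5 in DESeq2). MSX2 alone of the 10 had an unadjusted p under 0.05 for it, with 2.79 (interval 0.68 to 4.90, adjusted p = 0.93), and BMP4 and ID2 had -0.93 and 0.87.

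The other genes of the pathway were counted by role. Of 11 further ligands 5 passed the filter on low counts, and 0 of these 5 passed the edgeR or DESeq2 test against mTeSR1 in any of the 4 comparisons, with 0 or 1 at an unadjusted p under 0.05. The shares of all symbols under that p were 6.16% and 13.6% for WNT3A at 6 h and 18 h. They were 4.74% and 19.6% for CHIR99021 at the same times. Of 11 receptors and co-receptors 9 were tested, and 1, RGMB, rose in all 4 comparisons. RGMB encodes a membrane-anchored co-receptor that binds BMP2 and BMP4. It was at 21.3 and 21.9 CPM in mTeSR1, 91.6 and 91.8 CPM after 6 h and 89.8 and 117 CPM after 18 h of WNT3A, 59.9 and 72.1 CPM after 6 h and 115 and 130 CPM after 18 h of CHIR99021. All treated libraries were above both mTeSR1 libraries, and the log2 changes in that order were 2.09, 2.26, 1.61 and 2.42 (adjusted p = 0.0025, 0.0025, 0.036 and 6.0e-04). The call at 6 h of CHIR99021 was lost when any 1 of the 4 libraries compared was left out (adjusted p of 0.14 to 0.42) and with 1 row per identifier (adjusted p = 0.064). Before adjustment 2, 2, 1 and 3 of the 9 were under a p of 0.05 in the same order, and DESeq2 called RGMA beside RGMB after 18 h of CHIR99021 (edgeR value 0.77, adjusted p = 0.076).

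All 13 SMADs and intracellular regulators were tested, and 0 passed in edgeR in any of the 4 comparisons, with 1, 3, 1 and 3 at an unadjusted p under 0.05 for WNT3A 6 h, WNT3A 18 h, CHIR99021 6 h and CHIR99021 18 h. DESeq2 called 0 of them in the first 3 and 1, SKIL, in the last. Of 18 extracellular antagonists and modulators 13 were tested, and 1 rose after WNT3A at both times and after 18 h of CHIR99021. That gene was FST, which encodes follistatin, a secreted protein that binds activins and some BMPs. It was at 12.5 and 7.43 CPM in mTeSR1, 290 and 234 CPM after 6 h and 466 and 301 CPM after 18 h of WNT3A, and 119 and 105 CPM after 6 h and 177 and 399 CPM after 18 h of CHIR99021. The log2 changes were 4.71, 5.26, 3.48 and 5.11, with adjusted p of 0.0042, 0.0043, 0.069 and 0.0014, and the third passed with the block (3.52, adjusted p = 0.011) and in DESeq2. NOG, which encodes the antagonist noggin, was at 0 to 12 counts per library and was not tested. It is named, like the genes of the next paragraph, after its values were seen.

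Of 10 other genes that BMP raises in pluripotent cells or embryos, 3 passed the filter, TBX3, ATOH8 and CDX2. In edgeR 0 of the 3 passed in each comparison with mTeSR1, with 2, 2, 1 and 2 at an unadjusted p under 0.05 in the same order as above, and DESeq2 called CDX2 in all but CHIR99021 6 h. Of these 3, CDX2 differed most between the CHIR99021 18 h libraries, at 0.955 CPM in replicate 1 and 41.4 CPM in replicate 2. Of the 3 E protein genes, TCF3, TCF4 and TCF12, whose products the ID proteins bind, 0 passed in edgeR in any of the 4 comparisons. Before adjustment TCF4 was under a p of 0.05 in all 4, and DESeq2 called it in all but CHIR99021 6 h. Its mTeSR1 libraries were at 84.1 and 92.5 CPM, against 151 and 223 CPM after 6 h and 163 and 144 CPM after 18 h of WNT3A, and with the repeat as a block TCF4 passed at both times (1.07 and 0.80, adjusted p = 0.022 and 0.030). The 7 amnion and extraembryonic markers GATA3, TFAP2A, HAND1, GABRP, VTCN1, KRT7 and ISL1 summed to 14.2 to 15.4 CPM in mTeSR1, 14.8 to 19.5 CPM after 6 h and 5.18 to 5.89 CPM after 18 h of WNT3A, and 13.1 to 14.0 CPM after 6 h and 6.09 to 6.94 CPM after 18 h of CHIR99021. HAND1 was at 0 in mTeSR1 and in both 6 h groups, and 2 of the 7 passed the filter, of which GABRP fell after 18 h of CHIR99021 (95% interval -2.99 to -1.02 on the log2 scale, with an adjusted p that rounds to 0.050). Without the block GABRP did not pass there (-1.33, adjusted p = 0.53), and with it GABRP and KRT7 passed after 18 h of WNT3A (-1.84 and -1.54, adjusted p = 0.045 and 0.0060). DESeq2 called KRT7 at 18 h of both agents and GABRP at 18 h of CHIR99021. The plot of the other pathway genes shows these lists at 18 h.

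**Figure D4:**
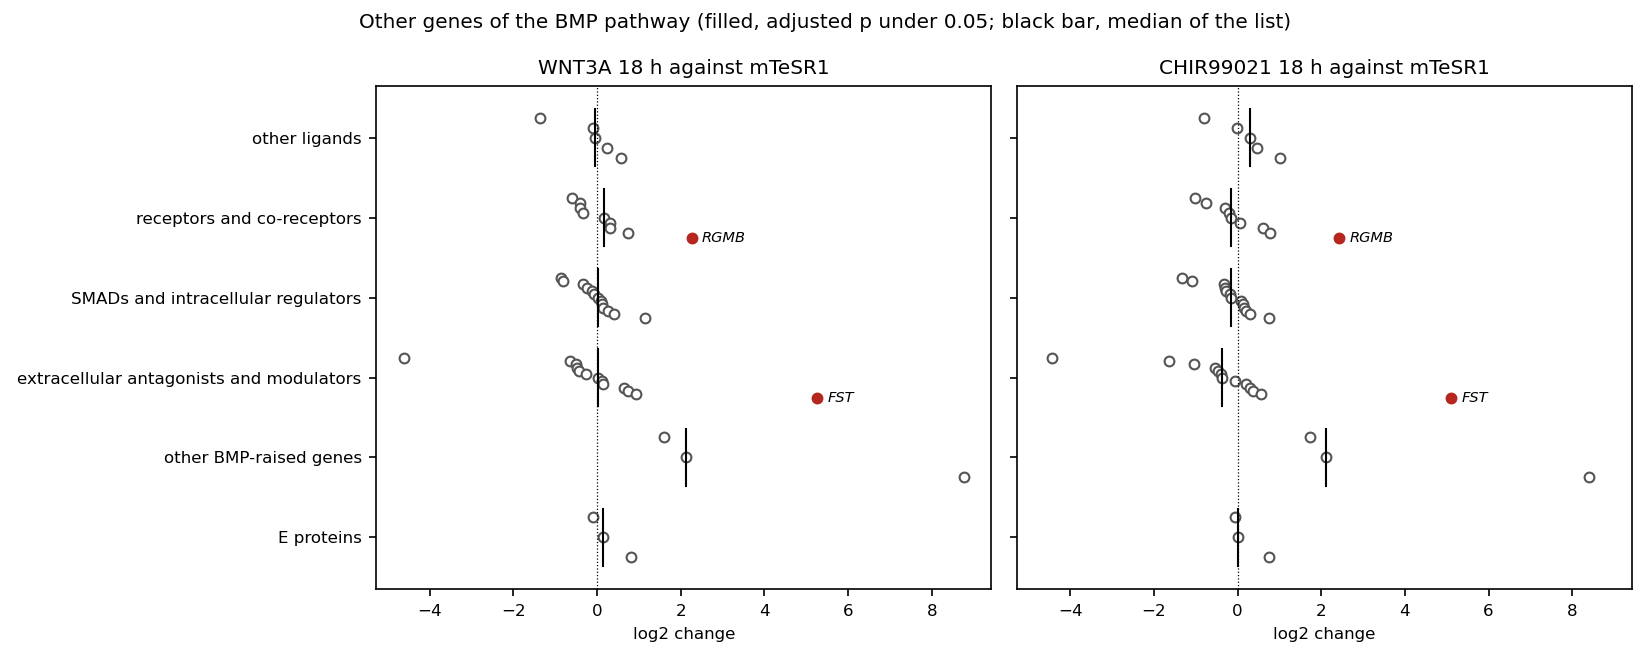
Log2 change against mTeSR1 at 18 h for the tested genes of 6 BMP lists, 1 point per gene, filled where the adjusted p was under 0.05, with a bar at each list's median. RGMB and FST are the filled points for both agents, and the 13 SMADs and regulators have medians of 0.03 and -0.16. The CHIR99021 values are from the fit with the repeat as a block and the WNT3A values from the fit without it.

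Across the 10 libraries, among 12694 symbols outside these lists with a mean log2 CPM of at least 1, the profiles most like BMP4 were those of OAT, CDK5 and BNIP3 (Pearson r of 0.957, 0.954 and 0.953). Those most like ID2 were WNT5B, CDX1 and GBX2 (0.992, 0.981 and 0.979), and those most like MSX2 were NKX1-2, LEF1 and FBXL14 (0.964, 0.961 and 0.958). Among the 10 genes themselves, ID2 and MSX2 had the highest coefficient, 0.942, and BMP4 had 0.754 with ID2. ID1 had -0.182 with ID2. BMP7 and ID3 had the lowest coefficient, -0.740. These values describe 10 libraries that share treatments and repeats.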

How the data were processed

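Per the labels' protocols, poly-A RNA was sequenced as paired ends. The authors deposited estimated counts per gene identifier, and the submitters' processing notes name Salmon 1.8.0 and GRCh38. Not given in the sources used here are the transcript set, the step to genes and the strand setting. The 37951 identifiers were summed per symbol (35940, of which 13588 were at 0 in all libraries) and rounded. Tests used edgeR 4.0.16 in R 4.3.3 (quasi-likelihood, robust, trimmed-mean scaling, minimum count 10 and total 15), all 10 libraries in 1 fit, adjusted p (Benjamini-Hochberg) under 0.05 over 15251 symbols. P-values measure the spread between libraries, and for the CHIR99021 18 h pair no source says whether the libraries are separate cultures. In comparisons with CHIR99021 18 h, which has no library of repeat 1, the biological repeat was a block. The rest had no block, so their main tests left out the pairing of the libraries by repeat. Both forms were fitted for each. The repeats pair the libraries per the series' design text, and deviations from group means correlated at 0.261 to 0.595 over 6 pairs of groups. Replicates differed beyond sampling noise (chi-square per degree of freedom 13.1 to 109). Mitochondrial genes took 2.70% to 6.73% of counts. Alternatives were DESeq2 1.42.0, its size factors in edgeR, no filter, 1 row per identifier, the block and leaving out each library. Counting intervals and the 3-count floor cover counting error only. All 10 genes were named, and of the pathway lists those called against mTeSR1. The genes and lists were chosen with earlier results of these data known. The scripts were tested on simulated data. Positions come from GENCODE annotation of GRCh38 and promoters from RefSeq (GRCh38.p14).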

Additional observations from a re-analysis of the deposited data

How the results depend on the processing

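Under every alternative the log2 changes were recomputed for the 10 genes, RGMB, FST and TCF4 against mTeSR1, and for BMP4, ID2 and MSX2 in the other comparisons. Of these values 542 kept their direction and side of the threshold, 25 passed only under the alternative, 25 no longer passed and 23 changed sign, none of the last a called value. Of the 10 genes, 0 passed after 6 h of WNT3A, 1 with no filter, 1 in DESeq2 and 2 with the replicate block; the 2 called after 18 h of WNT3A became 3 with no filter, 3 in DESeq2, 4 with the replicate block and 0 when any library was left out; the 3 called after 18 h of CHIR99021 became 2 with no filter, 4 in DESeq2, 1 with no replicate block and 0 to 3 when a library was left out. From 6 h to 18 h, 0 became 1 for WNT3A with no filter, in DESeq2 and with the replicate block, and 1 for CHIR99021 in DESeq2 and 0 to 1 when a library was left out. Symbols called over the whole table moved as follows. After 6 h of WNT3A, 66 became 173 with no filter, 241 in DESeq2, 168 with the replicate block and 13 to 70 when a library was left out. After 18 h of WNT3A, 320 became 576, 768 and 751 in that order, and 53 to 75 when a library was left out. After 6 h of CHIR99021, 3 became 32, 61 and 21, 1 with 1 row per identifier and 1 when a library was left out. After 18 h of CHIR99021, 424 became 254 with 1 row per identifier, 900 in DESeq2, 181 with no replicate block and 10 to 522 when a library was left out. From 6 h to 18 h of WNT3A, 22 became 275 with no filter, 394 in DESeq2, 279 with the replicate block and 0 to 101 when a library was left out, and for CHIR99021, 1 became 21 with no filter, 0 with 1 row per identifier, 130 in DESeq2, 0 with no replicate block and 0 to 83. Between the agents at 6 h, 1 became 9 with no filter, 29 in DESeq2, 3 with the replicate block and 0 when a library was left out, and at 18 h, 0 became 1 with 1 row per identifier, 8 in DESeq2 and 0 to 6. For the interaction, 0 became 1 with no filter, 1 with 1 row per identifier, 5 in DESeq2 and 0 to 6 when a library was left out. Signs turned for uncalled values when a library was left out, with ranges after 6 h of WNT3A of -0.43 to 0.24 for BMP7, -0.16 to 1.03 for ID3, -0.82 to 0.37 for ID4 and -0.16 to 0.17 for BAMBI, which was at -0.00 with other size factors and in DESeq2. After 18 h of WNT3A the ranges were -0.71 to 0.64 for ID1, which was at -0.00 with the replicate block, and -0.35 to 0.19 for BAMBI. After 6 h of CHIR99021 they were -0.38 to 0.24 for BMP7, -0.58 to 0.20 for ID1 and -1.20 to 0.13 for ID4, and after 18 h -0.61 to 0.20 for ID1, which was 0.14 with no replicate block. They were -0.95 to 0.50 for MSX2 from 6 h to 18 h of WNT3A, and -0.51 to 0.08 for BMP4 and -0.81 to 0.41 for ID2 between the agents at 18 h. The cause of these shifts was not tested. With 1 to 4 counts of MSX1 and MSX2 in mTeSR1, the size of their changes is limited by depth.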
